A study of Homo sapiens with 22 samples.

Results

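The AP-1 subunits and early growth response genes measured here were JUN, JUNB, JUND, FOS, FOSB, FOSL1, FOSL2, ATF3, EGR1 and IER2. These 10 genes, of 16922 genes with a symbol on the array, were matched to probes by the annotated symbol, and the choice of genes was made with earlier results of these data known. They were represented by 11 of 24526 probes, and 10 probes, 1 for each gene, were above background on at least 3 arrays and entered the tests. The second ATF3 probe (ILMN_1661109), designed on another transcript, was above background on 0 of 22 arrays, so ATF3 was read from 1 probe (ILMN_2374865).

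The cells were 3 established human liver cancer cell lines, Hep3B, HepG2 and Huh7. Cells of each line received COP1 siRNA or Negative Control siRNA at 15 nM, and RNA was taken 48 h later. The 22 Illumina HumanRef-8 v3 arrays fell into 6 groups, with 4 COP1 siRNA and 4 control arrays in Hep3B, 4 and 4 in HepG2, and 3 and 3 in Huh7. All cells, the controls included, were transfected, and the design names 1 COP1 siRNA sequence, so effects of that sequence on other transcripts cannot be told apart from loss of COP1. The labels do not say whether replicates came from separate cultures, and the p-values below cover the spread between these arrays alone, which may be technical.

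AP-1 is a family of transcription factor dimers built from JUN proteins (JUN, JUNB, JUND) and FOS proteins (FOS, FOSB, FOSL1, FOSL2), which join through a leucine zipper and bind short DNA elements. ATF3 is a related leucine zipper protein that can pair with JUN, EGR1 is a zinc finger transcription factor, and IER2 encodes a nuclear protein. Many of these genes are immediate early genes, transcribed within minutes of growth factor or stress signals. COP1 is an E3 ubiquitin ligase and the JUN protein is one of its known substrates. In the liver JUN is known for roles in hepatocyte proliferation and survival. The arrays measured RNA, not protein.

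Levels are given as the deposited intensity, which the authors background-subtracted and quantile-normalized and which is therefore slightly above or below 0 for silent probes. A probe was counted as above background on an array over an intensity of 21.8. Changes are log2 fold changes ± standard error on a scale to which 50 was added, which understates the change of dim probes. Folds are the same changes taken out of log2, so for dim probes they are smaller than the ratio of the printed intensities. A change was called at an adjusted p under 0.05 in 1 limma fit of all 22 arrays, adjusted by the Benjamini-Hochberg method over 16563 probes.

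Of 3 COP1 probes, ILMN_1661002 fell by 2.05 ± 0.09 in Hep3B, 1.78 ± 0.11 in HepG2 and 2.40 ± 0.20 in Huh7 (limma adjusted p = 9.23e-17, 8.13e-14 and 4.8e-10), ILMN_2408001 fell by 1.98, 1.89 and 2.07, and ILMN_2294644 was at background on every array. The intensity of the array's median probe was 24.3 to 24.5 on every array. Replicate 3 of the Huh7 COP1 siRNA group stood apart, with a root mean square deviation from its group mean of 0.411 log2 units over all tested probes, against 0.12 to 0.27 on the other arrays. Changes of the 10 genes in Huh7 are therefore also given without it. On simulated data the fit made false calls more often than the threshold allows in every line, most often in Huh7 and least often in HepG2. Calls are therefore less firm than their p states. This holds above all for calls in Huh7 and for those with an adjusted p near 0.05, such as JUN in Hep3B and ATF3 in Huh7. Of 11 hepatocyte markers on the array, ALB, APOA1, APOA2, APOB, TTR, TF, FGB and FGG were above background on 0 of the 8 arrays labelled Hep3B, while 11 were above background on every HepG2 COP1 siRNA array and on every Huh7 array. The cells labelled Hep3B thus lacked most of the defining markers of a hepatocyte line, their identity could not be checked further here, and Hep3B below means the arrays so labelled. In bulk RNA, fewer cells that express a gene and less RNA per cell cannot be told apart.

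Of the 10 genes, 1 rose and 2 fell after COP1 siRNA in Hep3B, 2 rose and 1 fell in HepG2, while in Huh7 2 rose and 0 fell. Over all probes tested, 27.3% were called in Hep3B, 22.1% in HepG2 and 14.6% in Huh7, so the shares of 30%, 30% and 20% among these genes lay near the background of each line. The calls fell on 6 genes. JUN rose in Hep3B and HepG2, FOSL1 rose and EGR1 fell in HepG2, FOSB rose in Huh7, JUND fell in Hep3B, and ATF3 rose in Huh7 and fell in Hep3B. JUNB, FOS, FOSL2 and IER2 did not pass the test in any line. The median log2 fold change of the 10 genes was -0.16 in Hep3B, 0.11 in HepG2 and 0.27 in Huh7, beside -0.01, 0.02 and 0.01 over all probes tested. The groups did not overlap for 1 gene in Hep3B, 4 in HepG2 and 6 in Huh7, where the same held for 26.9%, 23.8% and 32.4% of all probes tested.

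**Figure D1:**
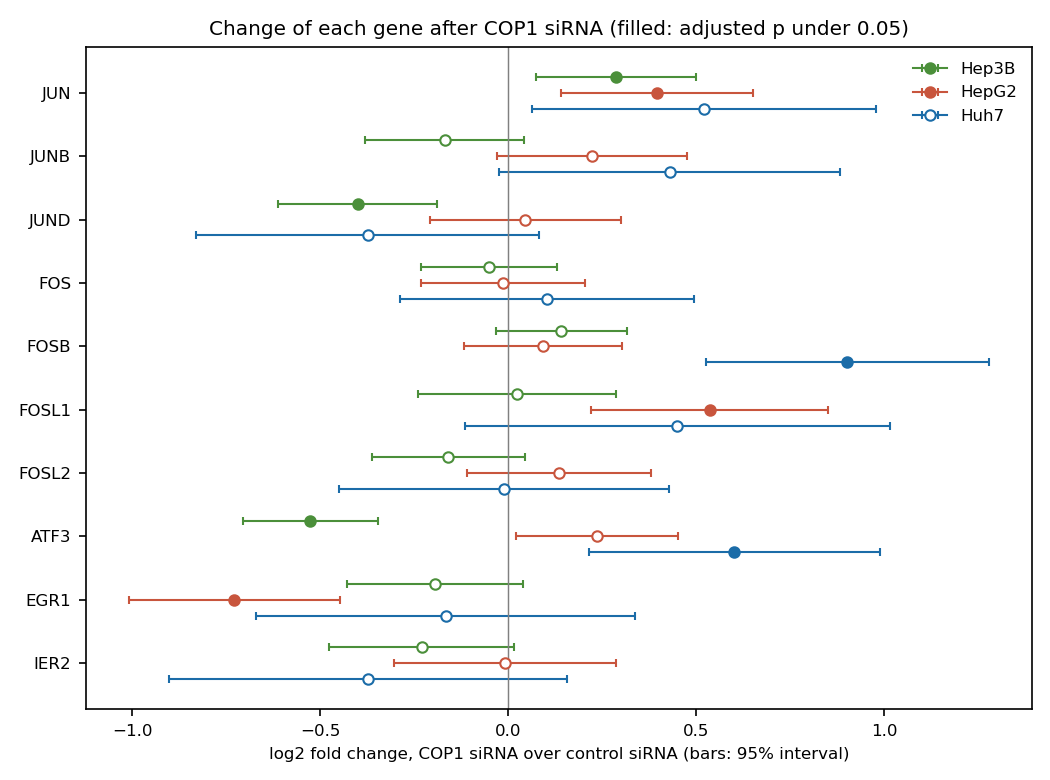
Log2 fold change of each gene, COP1 siRNA over control siRNA (x axis), in Hep3B, HepG2 and Huh7, with 95% intervals; filled points have an adjusted p under 0.05. JUN lies to the right of 0 in each line, while ATF3 lies at 0.60 in Huh7 and at -0.53 in Hep3B.

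The promoters of the genes that changed are shown because several of them carry elements of the kind that AP-1, ATF and serum response factors recognise, and JUN is known to act on its own promoter through such an element. RefSeq promoter windows of GRCh38.p14 were held for 9 of the 10 genes, and FOSL1 was missing. The 250 bases before each annotated start are printed 5′ to 3′ on the strand of the gene, with matches to 4 motifs in capitals. JUN lies at chr1:58784048-58784297 (minus strand), ATF3 at chr1:212565157-212565406 (plus strand, the outer of the annotated starts), JUND at chr19:18281623-18281872 (minus strand), FOSB at chr19:45467746-45467995 (plus strand) and EGR1 at chr5:138465229-138465478 (plus strand).
JUN: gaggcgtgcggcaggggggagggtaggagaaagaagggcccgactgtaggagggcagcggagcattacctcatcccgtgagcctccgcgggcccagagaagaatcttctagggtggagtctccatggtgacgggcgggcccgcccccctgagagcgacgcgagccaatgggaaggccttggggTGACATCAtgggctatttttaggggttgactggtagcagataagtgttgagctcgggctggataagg
ATF3: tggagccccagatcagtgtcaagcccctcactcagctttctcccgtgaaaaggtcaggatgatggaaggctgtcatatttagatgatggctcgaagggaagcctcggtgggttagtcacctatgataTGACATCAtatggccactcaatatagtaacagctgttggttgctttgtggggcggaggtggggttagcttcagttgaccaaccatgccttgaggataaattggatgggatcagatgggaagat
JUND: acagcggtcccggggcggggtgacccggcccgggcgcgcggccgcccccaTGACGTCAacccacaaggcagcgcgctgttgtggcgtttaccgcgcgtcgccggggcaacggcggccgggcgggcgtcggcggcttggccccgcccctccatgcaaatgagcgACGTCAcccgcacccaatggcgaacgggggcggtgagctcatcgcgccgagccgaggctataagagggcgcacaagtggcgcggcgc
FOSB: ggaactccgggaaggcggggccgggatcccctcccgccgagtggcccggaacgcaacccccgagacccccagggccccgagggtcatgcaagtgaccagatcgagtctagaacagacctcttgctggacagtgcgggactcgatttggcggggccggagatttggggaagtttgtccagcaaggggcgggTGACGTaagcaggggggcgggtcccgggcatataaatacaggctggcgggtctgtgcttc
EGR1: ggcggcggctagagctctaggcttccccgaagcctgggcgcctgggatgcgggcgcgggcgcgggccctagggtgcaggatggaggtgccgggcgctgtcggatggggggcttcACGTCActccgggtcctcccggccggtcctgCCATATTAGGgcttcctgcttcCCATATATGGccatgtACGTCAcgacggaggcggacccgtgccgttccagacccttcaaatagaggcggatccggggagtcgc

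Both strands were searched, and the motifs were chosen with these sequences in view. TGACATCA, an AP-1 and ATF-like element, lay 67 to 60 bases before the JUN start and 123 to 116 bases before the outer ATF3 start. Of 35116 RefSeq promoter windows of this length, 2.37% held it. TGACGT, the core of the cAMP response element, was found in the windows of JUND, FOSB, EGR1, FOS and FOSL2 and in 7.1% of all windows. The CArG box, the element bound by serum response factor, was found 2 times in EGR1, at 105 to 96 and 83 to 74 bases before the start, and in 1.16% of all windows. TGANTCA, where N is any base, is a pattern that includes the classical AP-1 element but is wider than it. It was in 0 of the 10 windows of these genes and in 6.57% of all windows. The windows of JUNB and IER2 held none of these motifs, nor did the window of the other ATF3 start. The JUND matches overlap in part, because TGACGT and its reverse complement share letters there. These matches describe the letters of the windows and are no evidence that a factor bound them.

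JUN (ILMN_1806023; chr1:58780791-58784047, GRCh38.p14) encodes the AP-1 subunit that COP1 is known to mark for degradation. Its mRNA was higher after COP1 siRNA in Hep3B and HepG2, by 1.22-fold and 1.32-fold. In Hep3B it had intensities of 1781, 1668, 1789 and 1430.2 in COP1 siRNA cells, against 1313, 1194.5, 1464 and 1432 in control cells. The lowest COP1 siRNA array lay inside the control range and the other 3 lay above it. JUN rose by 0.29 ± 0.10 in Hep3B (limma adjusted p = 0.0375; 95% interval 0.08 to 0.50). In HepG2 JUN had intensities of 1307, 1497, 1369 and 1256 in COP1 siRNA cells, against 1116, 979, 984 and 971 in control cells. All 4 COP1 siRNA arrays lay above all 4 controls, and JUN rose by 0.40 ± 0.12 (limma adjusted p = 0.0198; interval 0.14 to 0.65). In Huh7 the intensities were 2361, 1721 and 1029 in COP1 siRNA cells, against 1195, 932 and 1201 in control cells. Replicate 1 was the highest and replicate 3, the array that stood apart, fell inside the control range. The log2 fold change of JUN in Huh7 was 0.52 ± 0.22 and did not pass (limma adjusted p = 0.125; interval 0.06 to 0.98). Without replicate 3 it was 0.83 (adjusted p = 0.000231), and without replicate 1 it was 0.26 (adjusted p = 0.522), so single arrays decided the value in this line. The JUN call in Hep3B was lost with equal array weights and under 9 other alternatives of 30 (adjusted p from 0.0111 to 0.252), and that in HepG2 under 4 of 30 (0.00969 to 0.0811). In Huh7 JUN was called under 3 of 30 alternatives (adjusted p from 0.000231 to 0.522). These were equal array weights, 1 weight per array and the fit without replicate 3, so the weighting also decided the call there.

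JUNB (ILMN_2086077; chr19:12791486-12793315), a JUN paralogue that activates transcription less strongly than JUN at many AP-1 sites, did not pass the test in any line. In Hep3B it had intensities of 59.4, 45.3, 75.5 and 43.4 in COP1 siRNA cells, against 96.2, 85.6, 48.8 and 60.3 in control cells, a log2 fold change of -0.17 ± 0.10 (limma adjusted p = 0.247). In HepG2 the intensities were 125, 136, 130.05 and 102.6 in COP1 siRNA cells, against 81.4, 121, 105 and 76.0 in control cells, a log2 fold change of 0.22 ± 0.12 (adjusted p = 0.215). Both pairs of groups overlapped. In Huh7 the 3 COP1 siRNA arrays, at 366, 364 and 429, lay above the 3 controls, at 222, 245 and 345. The log2 fold change of JUNB in Huh7 was 0.43 ± 0.22 (limma adjusted p = 0.217), or 0.36 without replicate 3 (adjusted p = 0.153).

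JUND (ILMN_1810214; chr19:18279694-18281622), the JUN family member that is expressed constitutively in many tissues, fell in Hep3B, where it was also dimmest. Its intensities in Hep3B were 1918, 1682, 1515 and 2344 in COP1 siRNA cells, against 2579, 2646, 2399 and 2210.3 in control cells. Of the 4 COP1 siRNA arrays 3 lay below every control, and JUND fell by 0.40 ± 0.10 (limma adjusted p = 0.00373), a call kept under 30 of 30 alternatives. In HepG2 the intensities were 16020, 16466, 13131 and 13347 in COP1 siRNA cells, against 13024, 14622, 13764 and 15524 in control cells. These groups overlapped throughout, with a log2 fold change of 0.05 ± 0.12 (limma adjusted p = 0.846; interval -0.21 to 0.30). In Huh7 the intensities were 13405, 12425 and 16122 in COP1 siRNA cells, against 17979, 19818 and 16466 in control cells. The groups did not overlap, but the log2 fold change of -0.37 ± 0.22 did not pass (limma adjusted p = 0.304). Without replicate 3 of the COP1 siRNA group it was -0.48 (adjusted p = 0.0434).

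**Figure D2:**
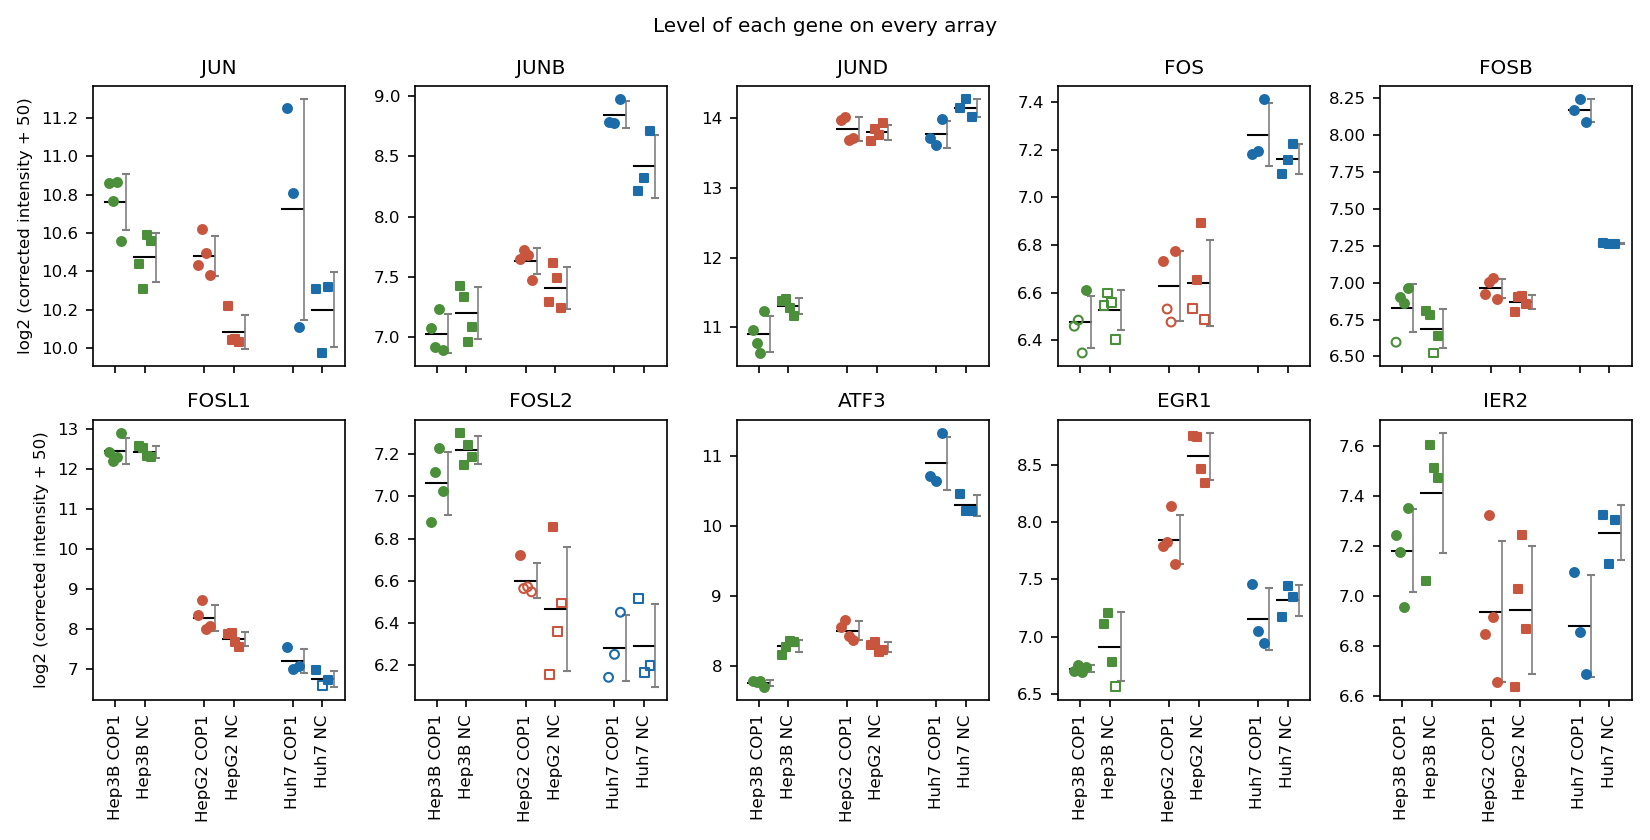
Log2 of the background-corrected intensity plus 50 (y axis) of each gene on all 22 arrays, with COP1 siRNA arrays as circles and control (NC) arrays as squares for Hep3B, HepG2 and Huh7. Open symbols are arrays not above background, black lines are group means and grey bars are 1 SD (n = 4 per group in Hep3B and HepG2 and 3 in Huh7); the y axes differ between genes and do not start at 0.

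Among the FOS family, FOSB rose in Huh7 and FOSL1 rose in HepG2, while FOS and FOSL2 did not pass in any line. FOS (ILMN_1669523; chr14:75278828-75282230), the partner of JUN in the best known AP-1 dimer, was dim in all cells. In Hep3B it was above background on 1 of 4 COP1 siRNA arrays (12.8, 14.4, 6.18 and 22.7) and on 0 of 4 control arrays (18.3, 21.7, 19.0 and 9.49). In HepG2 it was above background on 2 of 4 arrays of each group, at 31.0, 17.2, 13.8 and 34.3 in COP1 siRNA cells, against 17.4, 25.4, 43.5 and 14.5 in control cells. In both lines the measured values are largely bounds. In Huh7 FOS was above background on every array, at 70.0, 71.4 and 95.5 in COP1 siRNA cells, against 61.9, 67.7 and 74.6 in control cells. These groups overlapped, with a log2 fold change of 0.10 ± 0.19 (limma adjusted p = 0.811; interval -0.29 to 0.49), or 0.03 without replicate 3 (adjusted p = 0.928).

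FOSB (ILMN_1751607; chr19:45467996-45475179), a FOS protein induced by many of the signals that induce FOS, was 1.87-fold higher after COP1 siRNA in Huh7 on the scale with 50 added. Its intensities in Huh7 were 213, 228 and 196 in COP1 siRNA cells, against 78.9, 78.6 and 78.3 in control cells. The groups lay far apart, and FOSB rose by 0.90 ± 0.18 (limma adjusted p = 0.00092). The change was 0.94 without replicate 3 of the COP1 siRNA group, and the call was lost under 1 of 30 alternatives, the fit without background correction (adjusted p = 0.121). In HepG2 the intensities were 46.0, 53.1, 55.6 and 43.5 in COP1 siRNA cells, against 36.6, 44.6, 45.0 and 40.4 in control cells, a log2 fold change of 0.09 ± 0.10 (limma adjusted p = 0.583). In Hep3B they were 21.7, 44.4, 40.9 and 49.6 in COP1 siRNA cells, against 36.8, 34.9, 16.8 and 24.5 in control cells, a log2 fold change of 0.14 ± 0.09 (limma adjusted p = 0.241). The groups overlapped in both of these lines, and in Hep3B the lowest array of each group was not above background. The response itself differed between lines, being lower by 0.81 ± 0.21 in HepG2 than in Huh7 (limma adjusted p = 0.00876) and by 0.76 ± 0.20 in Hep3B than in Huh7 (limma adjusted p = 0.0167). The first difference lost its call under 1 of 29 alternatives, the fit without background correction (adjusted p = 0.269). The second lost its call under 7 of 29 alternatives, including without Huh7 COP1 siRNA replicate 2 and without each Huh7 control array (adjusted p from 0.000294 to 0.477). FOSB was dimmer in HepG2 and Hep3B than in Huh7, so the added 50 understates its change more in those lines. The part of this in the differences was not tested.

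FOSL1 (ILMN_1771841; chr11:65892049-65900545) encodes FRA1, a FOS protein that is itself a known target of AP-1. It was 1.45-fold higher after COP1 siRNA in HepG2, at intensities of 249.7, 345.5, 181 and 195 in COP1 siRNA cells, against 161, 163, 129 and 111 in control cells. All 4 COP1 siRNA arrays lay above all 4 controls, and FOSL1 rose by 0.54 ± 0.15 (limma adjusted p = 0.0108). The call was lost without HepG2 COP1 siRNA replicate 2 and without HepG2 control replicate 4, with an adjusted p of at most 0.054. In Hep3B FOSL1 had intensities of 5429, 4637, 4959 and 7651 in COP1 siRNA cells, against 6061, 5865, 5072 and 4959 in control cells, and a log2 fold change of 0.02 ± 0.13 (limma adjusted p = 0.922; interval -0.24 to 0.29). In Huh7 the intensities were 112, 53.2 and 59.4 in COP1 siRNA cells, against 51.1, 20.5 and 29.9 in control cells, 1 of which was not above background. The 3 COP1 siRNA arrays lay above the controls, but the log2 fold change of 0.45 ± 0.28 did not pass (limma adjusted p = 0.322), nor did 0.52 without replicate 3 (adjusted p = 0.0917).

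FOSL2 (ILMN_1725175; chr2:28392858-28417317) encodes FRA2, another FOS protein. It was above background on every array only in Hep3B, at 42.4, 63.6, 74.9 and 55.0 in COP1 siRNA cells, against 82.7, 66.8, 76.4 and 70.7 in control cells. These groups overlapped, with a log2 fold change of -0.16 ± 0.10 (limma adjusted p = 0.262). In HepG2 it was above background on 1 of 4 arrays of each group, so the measured values are largely bounds, and it did not pass (limma adjusted p = 0.479). In Huh7 it was above background on 0 of 3 arrays of each group, so no fold can be given.

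ATF3 (chr1:212565407-212620777), a stress-induced leucine zipper factor that represses or activates depending on its partner, was the only one of the 10 genes called in opposite directions. In Huh7 it had intensities of 1599, 1521 and 2506 in COP1 siRNA cells, against 1334, 1109.5 and 1106 in control cells. The groups did not overlap, and replicate 3 was the highest array. ATF3 rose 1.52-fold in Huh7, by 0.60 ± 0.19 (limma adjusted p = 0.0291), and by 0.38 without replicate 3 (adjusted p = 0.0467). The Huh7 call was lost under 7 of 30 alternatives, among them without each of the 3 control arrays and with Huh7 fitted alone (adjusted p from 0.00185 to 0.159). In HepG2 the intensities were 301, 328, 269 and 253 in COP1 siRNA cells, against 239, 249, 216 and 224 in control cells. All 4 COP1 siRNA arrays lay above the controls here too, but the log2 fold change of 0.24 ± 0.11 did not pass (limma adjusted p = 0.112). In Hep3B the order was turned, with 144, 142, 144 and 132 in COP1 siRNA cells, against 209.9, 232, 253 and 249.6 in control cells. ATF3 fell 1.44-fold in Hep3B, by 0.53 ± 0.09 (limma adjusted p = 2.58e-05), and kept that call under 30 of 30 alternatives. The response in Hep3B was lower than that in HepG2 by 0.76 ± 0.14 (limma adjusted p = 9.36e-05) and lower than that in Huh7 by 1.13 ± 0.21 (limma adjusted p = 0.000489), and both differences were called under 29 of 29 alternatives. The responses of HepG2 and Huh7 differed by -0.37 ± 0.22, which did not pass (limma adjusted p = 0.28).

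**Figure D3:**
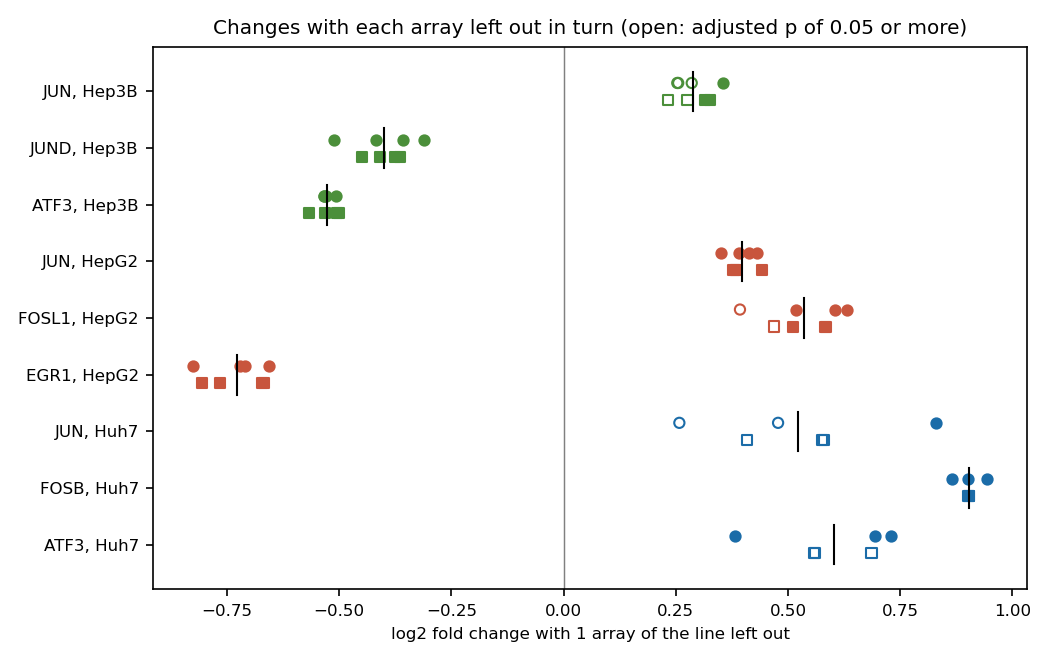
Log2 fold change, COP1 siRNA over control siRNA (x axis), when 1 array of the line was left out, for the 8 called changes and JUN in Huh7. Circles leave out a COP1 siRNA array, squares leave out a control array, open symbols have an adjusted p of 0.05 or more and black lines mark the value with all arrays; JUN in Huh7 runs between 0.26 and 0.83, while ATF3 in Hep3B stays between -0.57 and -0.50.

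EGR1 (ILMN_1762899; chr5:138465479-138469303), a transcription factor switched on by ERK signalling through serum response elements, fell in HepG2. Its intensities in HepG2 were 146, 151, 207 and 123 in COP1 siRNA cells, against 357, 353, 278 and 249 in control cells. All 4 COP1 siRNA arrays lay below all 4 controls, and EGR1 fell 1.66-fold, by 0.73 ± 0.14 (limma adjusted p = 0.000169). The call was kept under 29 of 30 alternatives and lost without background correction (adjusted p = 0.0716). In Hep3B EGR1 had intensities of 28.7, 32.8, 27.8 and 31.6 in COP1 siRNA cells, against 62.5, 72.8, 34.4 and 19.2 in control cells. The control arrays spread widely around the COP1 siRNA arrays, with a log2 fold change of -0.19 ± 0.11 (limma adjusted p = 0.231). In Huh7 the intensities were 100.4, 57.6 and 48.1 in COP1 siRNA cells, against 68.9, 98.4 and 87.1 in control cells, with a log2 fold change of -0.17 ± 0.25 (limma adjusted p = 0.754), or -0.06 without replicate 3 (adjusted p = 0.863). The response in Hep3B was higher than that in HepG2 by 0.53 ± 0.18 (limma adjusted p = 0.0244), a call lost under 7 of 29 alternatives (adjusted p from 0.00749 to 0.482), and the other differences of EGR1 between lines did not pass.

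IER2 (ILMN_1700584; chr19:13150411-13154911), an immediate early gene induced by the same signals, did not pass in any line. In Hep3B it had intensities of 76.5, 69.2, 48.9 and 88.2 in COP1 siRNA cells, against 58.0, 119, 108 and 102.5 in control cells, a log2 fold change of -0.23 ± 0.12 (limma adjusted p = 0.169). In HepG2 the intensities were 40.1, 85.1, 45.6 and 25.6 in COP1 siRNA cells, against 24.2, 55.1, 76.4 and 41.7 in control cells, a log2 fold change of -0.01 ± 0.14 (limma adjusted p = 0.981). Both pairs of groups overlapped. In Huh7 the COP1 siRNA arrays, at 61.6, 40.7 and 28.0, lay below the controls, at 85.2, 64.6 and 83.0. The log2 fold change of IER2 in Huh7 was -0.37 ± 0.26 (limma adjusted p = 0.402), or -0.28 without replicate 3 (adjusted p = 0.368).

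The test of the difference between lines, run for all 10 genes, gave 3 calls for Hep3B minus HepG2 (1 higher and 2 lower), 2 for Hep3B minus Huh7 and 1 for HepG2 minus Huh7, the last 3 all lower. Over all probes tested, 27.8%, 7.49% and 14.9% were called in these comparisons. Besides those of FOSB, ATF3 and EGR1, the remaining call was JUND, whose response in Hep3B was lower than that in HepG2 by 0.45 ± 0.16 (limma adjusted p = 0.0385), and which was called under 15 of 29 alternatives (adjusted p from 0.00499 to 0.0962). JUN, called in Hep3B and HepG2 and not in Huh7, had responses that differed by -0.11 ± 0.16 for Hep3B minus HepG2 (limma adjusted p = 0.669; interval -0.44 to 0.22), -0.23 ± 0.25 for Hep3B minus Huh7 (0.673; -0.74 to 0.27) and -0.12 ± 0.26 for HepG2 minus Huh7 (0.807; -0.65 to 0.40). None of these 3 differences passed, but without Huh7 COP1 siRNA replicate 3 the difference for Hep3B minus Huh7 was -0.54 (adjusted p = 0.0456). Each line has 1 control group, so a control array that lies high or low enters both the change in its line and its differences from the other lines.

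The levels of these genes also differed between the control cells of the lines. Between controls, 6 of the 10 genes were called for Hep3B minus HepG2, 7 for Hep3B minus Huh7 and 6 for HepG2 minus Huh7, where 63.9%, 58.0% and 45.7% of all probes tested were called, so these shares lay near the background. FOSL1 had a mean intensity of 5489 ± 555 in Hep3B, 141 ± 25.2 in HepG2 and 33.8 ± 15.7 in Huh7 controls (SD, n = 4, 4 and 3). Hep3B was higher than HepG2 by 4.69 ± 0.14 and than Huh7 by 5.68 ± 0.22 (limma adjusted p = 6.86e-24 and 1.23e-20), and HepG2 was higher than Huh7 by 0.99 ± 0.22 (limma adjusted p = 0.000449). FOSL1 thus had the order Hep3B, HepG2, Huh7 with each step larger than the spread. JUND ran the other way, with 2459 ± 196 in Hep3B, 14233 ± 1080.2 in HepG2 and 18087 ± 1679 in Huh7 controls. Hep3B was lower than HepG2 by 2.50 ± 0.11 and than Huh7 by 2.84 ± 0.17 (limma adjusted p = 6.05e-19 and 2.88e-15), while HepG2 and Huh7 differed by -0.34 ± 0.18, which did not pass (limma adjusted p = 0.126).

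ATF3 and JUNB were highest in Huh7 controls. ATF3 averaged 236 ± 19.6 in Hep3B, 232 ± 14.7 in HepG2 and 1183.5 ± 131 in Huh7. It was lower in Hep3B and HepG2 than in Huh7, by 2.01 ± 0.15 and 2.03 ± 0.15 (limma adjusted p = 2.39e-13 and 9.36e-13), while Hep3B and HepG2 differed by 0.02 ± 0.10 (limma adjusted p = 0.896). JUNB averaged 72.7 ± 21.9 in Hep3B, 95.7 ± 20.8 in HepG2 and 271 ± 65.1 in Huh7. Huh7 was again the high line, with differences of -1.22 ± 0.17 for Hep3B and -1.01 ± 0.18 for HepG2 (limma adjusted p = 3.46e-07 and 2.12e-05). FOSB was also highest in Huh7, at low levels, with 28.3 ± 9.34 in Hep3B, 41.6 ± 3.97 in HepG2 and 78.6 ± 0.31 in Huh7. It was lower in Hep3B and HepG2 than in Huh7 by 0.58 ± 0.14 and 0.40 ± 0.15 (limma adjusted p = 0.00096 and 0.0298). Hep3B minus HepG2 was -0.21 ± 0.11 for JUNB and -0.18 ± 0.09 for FOSB, and neither passed (limma adjusted p = 0.104 and 0.0985). The FOSB call for HepG2 minus Huh7 was lost under 5 of 28 alternatives, among them without each Huh7 control array (adjusted p from 0.00257 to 0.114). FOS was above background on 0 of 4 Hep3B, 2 of 4 HepG2 and 3 of 3 Huh7 control arrays, and was at least 1.47-fold higher in Huh7 than in Hep3B (limma adjusted p = 0.000511), a bound set by the dimmest probes above background on the Hep3B arrays.

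EGR1 was highest in HepG2, with 47.2 ± 24.7 in Hep3B, 309 ± 54.3 in HepG2 and 84.8 ± 14.8 in Huh7 controls. HepG2 was higher than Huh7 by 1.26 ± 0.20 and Hep3B lower than HepG2 by 1.66 ± 0.13 (limma adjusted p = 3.61e-06 and 3.22e-13), and Hep3B and Huh7 differed by -0.40 ± 0.19, which did not pass (limma adjusted p = 0.0721). FOSL2 was above background on all Hep3B controls and on none of the Huh7 controls, and was at least 1.54-fold higher in Hep3B (limma adjusted p = 1.76e-05). JUN had 1351 ± 123 in Hep3B, 1012.5 ± 69.4 in HepG2 and 1109 ± 154 in Huh7. It was higher in Hep3B than in HepG2 by 0.39 ± 0.11 (limma adjusted p = 0.0038), and its other differences, 0.27 ± 0.17 for Hep3B minus Huh7 and -0.12 ± 0.18 for HepG2 minus Huh7, did not pass (adjusted p = 0.186 and 0.644). IER2, with 96.8 ± 26.8 in Hep3B, 49.4 ± 22.04 in HepG2 and 77.6 ± 11.3 in Huh7, was likewise higher in Hep3B than in HepG2, by 0.47 ± 0.13 (limma adjusted p = 0.0028), and called in no other pair.

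The patterns of the 10 genes across arrays differed from that of JUN. Over the 22 arrays, with each level taken relative to the control mean of its line, Pearson's r with JUN was 0.559 for FOSL1, 0.50 for FOSB, 0.293 for JUNB, 0.13 for ATF3, -0.131 for FOSL2, -0.134 for IER2, -0.244 for FOS, -0.309 for EGR1 and -0.539 for JUND. FOSL1 ranked 524 among 12256 genes in likeness to JUN. The 4 genes most like JUN were DGUOK (a mitochondrial deoxyguanosine kinase; r = 0.907), ZNF830 (a zinc finger protein; 0.852), PLAAT4 (a phospholipase and acyltransferase; 0.849) and RWDD1 (0.839), or 0.904, 0.844, 0.847 and 0.892 without Huh7 COP1 siRNA replicate 3. In Hep3B, HepG2 and Huh7 the log2 fold changes were 0.26, 0.46 and 0.57 for DGUOK and 0.39, 0.46 and 0.59 for ZNF830. They were 0.16, 0.63 and 0.53 for PLAAT4 and 0.54, 0.97 and 1.08 for RWDD1. The 4 genes were picked by their likeness to JUN over these same arrays, so their changes are no separate evidence. The points share their 11 control arrays and the split into 2 siRNA groups, so these coefficients only describe likeness over these arrays.

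Among 16 other AP-1 and leucine zipper partners tested, 1 rose and 1 fell in Hep3B, 1 fell in HepG2, and Huh7 had 1 rise and 1 fall. These are 12.5%, 6.25% and 12.5% of the list, beside 27.3%, 22.1% and 14.6% of all probes. In Hep3B ATF4, the effector of the integrated stress response, fell by 0.22 ± 0.08 (limma adjusted p = 0.0431), and CREM (adjusted p = 0.043) was above background on 1 of 4 COP1 siRNA arrays and 0 of 4 control arrays, too dim for a fold. In HepG2 ATF2, a partner of JUN, fell by 0.41 ± 0.12 (adjusted p = 0.0118). In Huh7 CREB5 rose by 0.98 ± 0.24 and the stress factor gene DDIT3 fell by 1.05 ± 0.27 (adjusted p = 0.0051 and 0.00663), or 0.66 and -0.65 without COP1 siRNA replicate 3. The median log2 fold change of the list was 0.02, 0.07 and 0.07 in Hep3B, HepG2 and Huh7. Without Huh7 COP1 siRNA replicate 3, 4 of the 16 were called in Huh7, 3 higher and 1 lower, where 21.8% of all probes were called.

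Among 25 other immediate early genes tested, 6 fell and 0 rose in Hep3B, 7 rose and 1 fell in HepG2, and Huh7 had 7 rises and 2 falls. These are 24%, 32% and 36% of the list, beside 27.3%, 22.1% and 14.6% of all probes, and its median log2 fold change was -0.09, 0.07 and 0.39. In Hep3B the 4 genes with the smallest p were GADD45B, a stress-induced growth arrest gene, which fell by 0.72 ± 0.10 (limma adjusted p = 7.15e-07), the transcription factor gene KLF2, by 0.70 ± 0.11 (5.7e-06), the EGR1 co-repressor gene NAB2, by 0.55 ± 0.10 (0.000124), and the small GTPase gene RHOB, by 0.26 ± 0.09 (0.0293). In HepG2 KLF2 rose by 0.97 ± 0.13 and RHOB by 0.86 ± 0.11 (adjusted p = 7.57e-07 and 2.71e-07), IER5 rose by 0.60 ± 0.11 (0.000124) and TIPARP, an ADP-ribosyltransferase gene, fell by 0.80 ± 0.12 (3.42e-06). In Huh7 the kinase gene SGK1 rose by 1.84 ± 0.23 (adjusted p = 1.28e-06), TIPARP by 0.84 ± 0.21 (0.00516) and the kinase gene PLK2, above background on 3 of 3 COP1 siRNA and 1 of 3 control arrays, by 0.96 ± 0.21 (0.0016), while ZFP36L2, which promotes mRNA decay, fell by 1.12 ± 0.21 (0.000292). Without Huh7 COP1 siRNA replicate 3, 15 of the 25 were called in Huh7, 12 higher and 3 lower, where 21.8% of all probes were called, and these included the 9 called with it.

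Among 17 genes of the JNK, ERK and serum response factor pathways that act upstream of AP-1, Hep3B had 4 rises and 2 falls, HepG2 had 3 rises and 2 falls, and Huh7 had 2 of each, or 35.3%, 29.4% and 23.5% of the list, beside 27.3%, 22.1% and 14.6% of all probes. MAPK9, which encodes JNK2, one of the kinases that phosphorylate JUN, fell by 0.44 ± 0.10 in Hep3B, 1.71 ± 0.12 in HepG2 and 0.89 ± 0.21 in Huh7 (limma adjusted p = 0.000883, 1.25e-12 and 0.0041). MAPK3, which encodes ERK1, rose by 0.74 ± 0.09 in Hep3B (adjusted p = 1.63e-07) and fell by 0.72 ± 0.19 in Huh7 (0.0103). In Hep3B MAP3K7 rose by 0.47 and the ribosomal S6 kinase gene RPS6KA1 fell by 0.45 (adjusted p = 0.00125 and 0.00112), and in HepG2 RPS6KA1 rose by 0.53 and RPS6KA3 fell by 0.97 (0.00163 and 0.000174), with MRTFA, a serum response factor co-activator gene, up by 0.36 (0.0244). In Huh7 MAP2K4 and MAP2K1, kinases above JNK and ERK, rose by 0.79 and 0.67 (adjusted p = 0.0274 and 0.0387), and neither was called without COP1 siRNA replicate 3 (0.38 and 0.42; adjusted p = 0.085 and 0.0591). Without that array 4 of the 17 were called in Huh7, 2 higher and 2 lower, where 21.8% of all probes were called. The 2 higher were SRF and RPS6KA1, at 0.84 and 0.54 (limma adjusted p = 0.000404 and 0.0224), neither of which was called with it. The median log2 fold change of the list was 0.11, -0.005 and 0.16 in Hep3B, HepG2 and Huh7.

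Among 24 known AP-1 target genes tested, Hep3B had 6 rises and 2 falls, HepG2 had 2 rises and 3 falls, and Huh7 had 6 rises and 2 falls, or 33.3%, 20.8% and 33.3% of the list, beside 27.3%, 22.1% and 14.6% of all probes. CXCL8, the chemokine interleukin-8, rose by 1.55 ± 0.10 in Hep3B, fell by 0.63 ± 0.12 in HepG2 and rose by 2.15 ± 0.21 in Huh7 (limma adjusted p = 1.69e-13, 0.000156 and 1.38e-08). In Hep3B the tissue factor gene F3 rose by 0.95 ± 0.10 (adjusted p = 2.31e-08) and PLAUR, the urokinase receptor gene, by 0.75 ± 0.10 (8.8e-07), while the urokinase gene PLAU fell by 0.85 ± 0.09 (1.05e-08). In HepG2 SPP1, osteopontin, fell by 2.17 ± 0.11 and the integrin gene ITGB1 by 0.72 ± 0.15, and the growth factor gene HBEGF rose by 0.42 ± 0.12 (adjusted p = 1.61e-15, 0.000605 and 0.00953). In Huh7 F3 was above background on 3 of 3 COP1 siRNA and 0 of 3 control arrays and at least 3.93-fold higher (adjusted p = 5.35e-08), the haem oxygenase gene HMOX1 rose by 1.71 ± 0.22 (1.49e-06) and the adhesion receptor gene CD44 by 1.47 ± 0.22 (2.17e-05). The median log2 fold change of the list was 0.07, -0.04 and 0.15 in Hep3B, HepG2 and Huh7, and without Huh7 COP1 siRNA replicate 3, 12 of the 24 were called in Huh7, 9 higher and 3 lower, where 21.8% of all probes were called. The members of each list moved in both directions in every line, apart from the other immediate early genes in Hep3B, where 0 rose, and the leucine zipper partners in HepG2, where 0 rose.

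**Figure D4:**
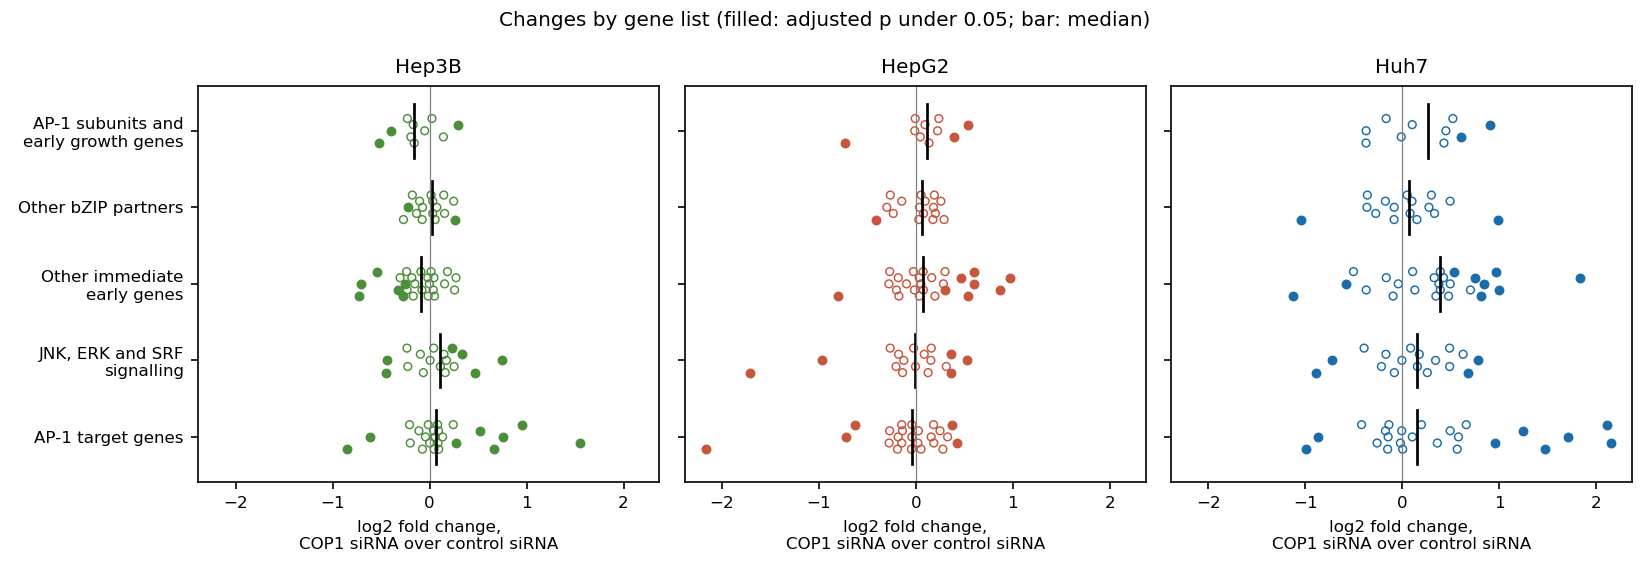
Log2 fold change, COP1 siRNA over control siRNA (x axis), of every tested gene of each list (rows) in Hep3B, HepG2 and Huh7; filled points have an adjusted p under 0.05 and bars are medians. The median of the 25 other immediate early genes lies at -0.09 in Hep3B, 0.07 in HepG2 and 0.39 in Huh7.

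Some markers of the cells themselves were called in each line. The summed intensity of the 11 hepatocyte markers was 96056 to 111540 in Huh7 COP1 siRNA cells, against 121470 to 132840 in Huh7 control cells. In Huh7 3 of the 11 were called, all lower, or 27.3% beside 14.6% of all probes. Without COP1 siRNA replicate 3, 5 were called, all lower, where 21.8% of all probes were called, and 2 of the 3 were among them, while APOA2 was at -0.25, against -0.75 with it (adjusted p = 0.246 without). The sum was 164780 to 169550 in HepG2 COP1 siRNA cells, against 172760 to 180350 in control cells. In HepG2 3 of the 11 rose and 1 fell (limma), or 36.4% beside 22.1% of all probes. In Hep3B the sum was 202 to 307 in COP1 siRNA cells, against 187 to 308 in control cells. There 0 of the 11 were called (limma), beside 27.3% of all probes. In Hep3B 8 of the 11 were above background on no array of either group and too dim for a change to be seen. This share therefore cannot be compared with that over all probes.

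Of 15 markers of fibroblasts, endothelium, leukocytes and erythroid cells, 8 were tested. In Hep3B 1 rose and 3 fell, or 50% beside 27.3% of all probes, with PDGFRB at -0.68, CD14 at -0.40, PECAM1 at 0.35 and COL1A1 at -0.31 (limma adjusted p = 3.5e-05, 0.00754, 0.0117 and 0.0178). In HepG2 CD14 rose by 0.51 and PDGFRB fell by 0.47 (limma adjusted p = 0.00648 and 0.0124), or 25% of the 8 beside 22.1% of all probes. In Huh7 1 was called, or 12.5% beside 14.6% of all probes. The shares in HepG2 and Huh7 thus lay near the background. The Huh7 call was the monocyte marker CD14, which hepatocytes also express and which fell by 2.08 ± 0.25 (limma adjusted p = 4.59e-07). The summed intensity of the 15 was 663 to 1160 in Huh7 COP1 siRNA cells, against 2101 to 2292.5 in control cells. Without CD14 it was 500.1 to 709 in Huh7 COP1 siRNA cells, against 387 to 512 in control cells, and 3 of the 15 were above background on 0 COP1 siRNA arrays, against 10 of the 15 on 0 control arrays, so the fall of the sum lay in CD14. The summed ranges in Hep3B and HepG2 overlapped. PTPRC and VWF, defining markers of leukocytes and endothelium, were at background in every group. The part of these shifts in the changes described above was not tested.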

How the data were processed

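RNA of 22 samples was hybridized to Illumina HumanRef-8 v3 arrays. The deposited intensity table holds values that the authors background-subtracted and quantile-normalized with GenomeStudio 2009.1, per the submitters' processing notes and the values themselves, of which 23.7% are below 0. A table of non-normalized values was not used, since its 44 per-sample columns carry names that match no label.

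A probe was above background over an intensity of 21.8, a limit at the 0.98 quantile of the absolute size of negative values, and 16563 of 24526 probes above it on at least 3 arrays were tested. Intensities were corrected with normexp (offset 50), taken to log2 and quantile-normalized in limma 3.58.1 (R 4.3.3), and 1 model with 6 group means was fitted. Each line had 1 array weight (1.60 in Hep3B, 1.11 in HepG2 and 0.461 in Huh7), because arrays in Huh7 spread more and a shared spread would make its errors too small. Most of the larger spread lay in the Huh7 COP1 siRNA group. Its arrays had root mean square deviations of 0.217 to 0.411 log2 units, against 0.152 to 0.165 for Huh7 controls. The line weight applied to both groups. The fit had 16 residual and 14.8 prior degrees of freedom, p-values were adjusted over all probes, and the code was tested on 1 simulated data set. There false calls were more frequent than the threshold allows in every line, most in Huh7 and least in HepG2. The number of arrays, 3 or 4 per group, limits the precision.

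Probes were named from the platform annotation, which gave 21834 probes a symbol and 2692 none. All probes of the 10 genes are described. Of each pathway list, taken by the brightest probe of a gene, up to 4 called genes per line with the smallest adjusted p are named. The 4 genes most correlated with JUN are named too, and CD14, the other marker names and the sums without CD14 were added after their values were seen. The 10 genes, the lists and the line weights were chosen with earlier results of these data known. Alternatives were equal or per-array weights, each line fitted alone, no normexp, offset 16, cyclic loess, no filter, a replicate block and leaving out each array.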

Additional observations from a re-analysis of the deposited data

Results flagged for a closer look

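The COP1 siRNA response of 4 genes differed between lines by the test of the difference itself. ATF3 differed by -1.13 ± 0.21 on the log2 scale for Hep3B minus Huh7 (limma adjusted p = 0.000489) and by -0.76 ± 0.14 for Hep3B minus HepG2 (limma adjusted p = 9.36e-05). FOSB differed by -0.81 ± 0.21 for HepG2 minus Huh7 (limma adjusted p = 0.00876) and by -0.76 ± 0.20 for Hep3B minus Huh7 (limma adjusted p = 0.0167). For Hep3B minus HepG2, JUND differed by -0.45 ± 0.16 (limma adjusted p = 0.0385) and EGR1 by 0.53 ± 0.18 (limma adjusted p = 0.0244).

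In 3 groups of 4 arrays, 1 array lay apart from the other 3 by Dixon's criterion. JUN was 1116 in HepG2 control replicate 1 and 971 to 984 in the other HepG2 controls. FOSL2 was 30.4 in HepG2 COP1 siRNA replicate 1 and 18.5 to 19.9 in the others, of which all 3 were below the background limit. ATF3 was 132 in Hep3B COP1 siRNA replicate 4 and 142 to 144 in the others. Chance alone marks about 1 in 20 of the 40 gene and group combinations tested.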

How the results depend on the processing

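Over the 10 genes and all 9 comparisons, 2512 of 2610 values under alternative settings kept their call, 61 lost it, 37 gained it and 0 called values changed sign. The counts of called genes moved more. In Huh7, where 2 were called, the count was 4 with equal array weights, 4 with 1 weight per array, 1 with the line fitted alone, 0 with no normexp, 1 with offset 16 and 1 to 4 with 1 array left out. With no normexp the count was 1 in HepG2, against 3, and it was 1 to 3 there with 1 array left out. For the response, with no normexp the counts were 0 for HepG2 minus Huh7, 1 for Hep3B minus Huh7 and 1 for Hep3B minus HepG2, against 1, 2 and 3. Offset 16 gave 1 for Hep3B minus Huh7 and 1 for Hep3B minus HepG2, and Hep3B minus HepG2 had 1 with equal weights and 5 with cyclic loess. With 1 array left out these counts were 1 to 3 for Hep3B minus Huh7 and 1 to 4 for Hep3B minus HepG2. Without Huh7 COP1 siRNA replicate 3, an alternative chosen after seeing the data, calls in Huh7 numbered 15 for the other immediate early genes, 4 for the leucine zipper partners and 5 for hepatocyte markers, against 9, 2 and 3. The cause of these shifts was not tested.

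Deviations from the group means showed no likeness between same-numbered arrays. None of the 11 pairs correlated above 0.1 (-0.275 to 0.0952), and 1 COP1 siRNA array correlated best with its own number. The deviations sum to 0 within each small group, so these values cannot show whether same-numbered arrays shared a culture. With the replicate block the count of called genes was 1 in Huh7, against 2, 2 in Hep3B, against 3, where JUN lost its call, and 1 for Hep3B minus Huh7, against 2. For Hep3B minus HepG2 the count was 3 in both fits, though JUND lost its call and FOSL1 gained one. The block was not run for comparisons between lines' controls. Fits of each line alone give no value for those comparisons or for differences of responses.

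Over all probes the count called in Huh7 was 2414, and 4979 with equal weights, 4344 with 1 weight per array, 1470 with the line alone and 1185 with no normexp, while in Hep3B it was 4526, and 2484 with equal weights. For the responses it was 2475 for HepG2 minus Huh7 (4028 with equal weights, 1114 with no normexp), 1241 for Hep3B minus Huh7 (2247 with equal weights, 3123 with 1 weight per array, 495 with no normexp, 778 with the replicate block) and 4606 for Hep3B minus HepG2 (3002 with equal weights). FOS, FOSL2 and the Hep3B values of EGR1 and FOSB lie close to background, which limits what a change of theirs can show.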
